A study of Mus musculus with 76 samples.

Results

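RON+MSP tumours are mouse tumours kept growing by the receptor tyrosine kinase RON together with its secreted ligand, macrophage stimulating protein (MSP). They are 6 of the 76 arrays of the series, taken by the introduced gene named in their labels, and were set against the 64 arrays of the 11 groups that received neither form of RON. The series comes from a directed complementation model: tumours first depend on a mutant HER2 receptor expressed only under doxycycline, the drug is then removed, and an introduced gene is tested for its ability to keep them growing. All groups share this origin, the C57BL/6 strain and the tissue, which was tumour. The RONd160 group, with 6 arrays, received the other form of RON, whose name the labels do not explain. The non-RON groups received ErbB3, FAK1, FGFR2aIIIb, FGFR2aIIIc, FGFR3, HER2, MAP3K11, MAP3K7, PIP5K1B, RSK2 or TNK2, with 4 arrays for FAK1 and 6 for each of the others. MAP3K11 tumours are labelled as having cachexia, a wasting of the body, and all others, RON+MSP included, as having none. Arrays also carry a label T1, T2 or T3 that is not defined, and each is called a biological replicate. The labels do not say whether RON and MSP were introduced in 1 construct, how many tumour lines or mice stand behind the 6 arrays, or which species' RON and MSP were used.

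RON, encoded in the mouse by Mst1r, is a close relative of the hepatocyte growth factor receptor MET. MSP circulates as an inactive precursor that serine proteases cleave, and the bound receptor is phosphorylated and engages the ERK and PI3K pathways. The receptor is known for epithelial cell scattering and migration, for its part in breast cancer, and for damping the activation of tissue macrophages, which carry it too.

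Among the genes described below, the chaperones and folding enzymes of the endoplasmic reticulum form the group with the highest share of calls. Many such genes are induced by the unfolded protein response through a promoter element read by the transcription factors NF-Y and ATF6, spelled CCAAT and CCACG with 9 bases of any kind between them. The 250 bases before the start of the 4 list members whose call was kept when paired arrays were taken into account are printed because they show where this element lies. Sequences are RefSeq's for the mouse build GRCm38.p6, written 5′ to 3′ along the gene, and capitals mark each match on either strand. They lie at chr14:118937682-118937931 on the plus strand for Dnajc3, chr10:86705445-86705694 on the minus strand for Hsp90b1, chr2:34771840-34772089 on the plus strand for Hspa5 and chr12:17266339-17266588 on the plus strand for Pdia6.
Dnajc3: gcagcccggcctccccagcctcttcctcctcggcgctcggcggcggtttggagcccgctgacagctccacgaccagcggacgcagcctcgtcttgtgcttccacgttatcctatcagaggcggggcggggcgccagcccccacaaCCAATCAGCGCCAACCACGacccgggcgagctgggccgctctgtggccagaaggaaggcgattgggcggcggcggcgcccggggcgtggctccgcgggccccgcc
Hsp90b1: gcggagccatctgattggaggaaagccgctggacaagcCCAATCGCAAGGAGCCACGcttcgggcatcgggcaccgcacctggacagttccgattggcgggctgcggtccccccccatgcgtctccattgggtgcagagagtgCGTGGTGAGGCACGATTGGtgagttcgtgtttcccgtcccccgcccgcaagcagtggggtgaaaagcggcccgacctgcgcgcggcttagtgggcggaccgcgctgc
Hspa5: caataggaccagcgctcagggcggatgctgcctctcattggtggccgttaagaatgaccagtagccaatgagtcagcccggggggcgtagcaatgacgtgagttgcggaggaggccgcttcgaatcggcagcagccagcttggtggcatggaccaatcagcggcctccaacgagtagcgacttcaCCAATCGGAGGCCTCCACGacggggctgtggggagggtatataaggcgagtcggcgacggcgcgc
Pdia6: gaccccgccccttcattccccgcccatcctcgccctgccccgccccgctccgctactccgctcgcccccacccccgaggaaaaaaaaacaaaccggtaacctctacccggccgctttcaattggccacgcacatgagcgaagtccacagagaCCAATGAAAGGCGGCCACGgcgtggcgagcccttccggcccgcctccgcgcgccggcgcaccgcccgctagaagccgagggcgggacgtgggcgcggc
In windows from 250 bases before to 50 bases after the start, 37 of 27025 genes held a match on either strand (0.137%), as did 6 of the 26 members of the unfolded protein list with a promoter in the table (23.1%). The element was described from promoters of this family, so its presence there is no result of these arrays. All 18 tested genes with a match are set against the expression data further on.

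Each array gave log2 values for 45101 probe sets, normalized by the authors, and the medians of the 6 RON+MSP arrays ran from 5.48 to 5.49 within a range of 5.45 to 5.56 over the series. A gene was read from its probe set with the highest mean, and 13868 genes were tested by limma, with p-values adjusted over all of them and a call at an adjusted p under 0.05. Within each group, arrays were matched into the pairs with the highest summed correlation of chromosome medians. Over the 38 pairs the median r was 0.957, against 0.162 for other arrays of the same group, a contrast that the matching itself favours. With chromosome medians removed from the genes, the median r was 0.771 in pairs and 0.27 in other arrays of the same group. The arrays of every pair have different T labels. In RON+MSP, pair A was T1 replicate 1 with T2 replicate 2, pair B was T1 replicate 2 with T3 replicate 2, and pair C was T2 replicate 1 with T3 replicate 1. Their correlations over 19 chromosome medians were 0.954, 0.951 and 0.908. With chromosome medians removed they were 0.75, 0.37 and 0.56. T1 replicate 2 and T2 replicate 1, from different pairs, reached 0.61 by that measure, so the matching of pairs B and C is less certain. The labels do not mention pairs, and whether a pair is 1 tumour, or 1 tumour line in different mice, was not tested. Because paired arrays are not independent, calls were also made in a fit with the pairs as a random block (correlation 0.628), whose p is here called the paired adjusted p, and single values are listed pair by pair with the lower T label first.

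The comparison asks what distinguishes a tumour sustained by ligand-stimulated RON from tumours sustained by other genes. With arrays as replicates, 1373 of 13868 genes were called (9.9%), 645 higher (4.65%) and 728 lower (5.25%) in RON+MSP. With the pairs as a block, 105 were called (0.757%), 55 higher (0.397%) and 50 lower (0.361%), and all 105 were among the 1373. In 102 of the 105, all 6 RON+MSP arrays lay on 1 side of the non-RON mean, which is the mean of the 11 group means. A call against that mean favours this, and it held in 1092 of the 1373 genes, so the count is no separate support. Without MAP3K11 in the comparison, 96 of the 105 were still called in the paired fit (0.692%). Most differences were small: 99 of the 105 were under 1 log2 unit. With each pair averaged to 1 sample 0 genes were called higher and 2 lower, so all 55 higher calls, Fermt2 and Hsp90b1 included, depend on how paired arrays are counted. Without pair A, B or C the paired fit called 6, 7 and 58.

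Fermt2, which encodes kindlin-2, an adaptor that helps talin activate integrins at focal adhesions, gave the clearest separation. Its level in RON+MSP was 10.69 and 10.78 in pair A, 10.72 and 10.71 in pair B and 10.67 and 10.71 in pair C, against 9.37 to 10.59 (median 10.07) in the 64 non-RON arrays. All 6 RON+MSP arrays lay above every non-RON array. Fermt2 was the only tested gene in which they did so (0.00721% of those tested), and 0 genes lay below all non-RON arrays in every RON+MSP array. The difference was 0.64 ± 0.084 log2 units (SE; adjusted p = 1.34e-06, paired adjusted p = 0.000125), and it was called in the paired fit without pair A, B or C (paired adjusted p 0.0117, 0.00744 and 0.00457). With each pair averaged to 1 sample the difference was 0.64 and was not called (adjusted p = 0.0642). In RONd160 the level was 10.36 ± 0.13 (SD, n = 6), and RON+MSP was higher by 0.35 ± 0.11 (adjusted p = 0.0338, paired adjusted p = 0.17). The other probe sets of Fermt2 differed by 0.77 and 0.30. The gene lies on chromosome 14, whose tested genes as a whole leaned upward in pairs A and B.

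Of the genes with the highest differences in the paired fit, Tnik and Tmeff1 were raised in every RON+MSP array. Tnik, a kinase that acts with TCF4 and beta-catenin on Wnt target genes, read 7.33 and 6.88 in pair A, 7.17 and 7.39 in pair B and 7.71 and 7.72 in pair C, against 3.94 to 7.76 (median 5.95) in non-RON arrays. The 6 values lay in the top of the non-RON range, with 10 of 64 non-RON arrays above the lowest of them, and the difference was 1.43 ± 0.32 (adjusted p = 0.00258, paired adjusted p = 0.0384). Tnik averaged 7.002 in RONd160, and the RON forms did not differ by the test (0.34 ± 0.44, adjusted p = 0.659). Tmeff1, a membrane protein with follistatin-like domains, read 7.80 and 7.53, 7.68 and 7.91, and 7.91 and 7.96 in pairs A, B and C, against a non-RON median of 6.78. Its difference was 1.01 ± 0.20 (adjusted p = 0.000749, paired adjusted p = 0.0253), and RONd160, at 6.02 to 6.69, lay below all 6 RON+MSP arrays (difference 1.44 ± 0.27, paired adjusted p = 0.00958).

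Tubb2b, a beta-tubulin of neurons, averaged 8.99 ± 0.22 in RON+MSP, 7.96 ± 0.47 in RONd160 (SD, n = 6 each) and 7.94 over the non-RON groups. It was called higher against the non-RON groups (1.05 ± 0.24, paired adjusted p = 0.0384), and MAP3K11 at 9.89 was the only group above RON+MSP. Col5a3, a fibrillar collagen chain, stood at 10.38 to 10.82 in RON+MSP against a non-RON median of 9.72 (0.93 ± 0.21, adjusted p = 0.00235, paired adjusted p = 0.0428). Robo1, the receptor for Slit guidance proteins, read 4.48 to 5.89 against a non-RON median of 4.38 (0.88 ± 0.17, paired adjusted p = 0.0384), and pair A held its lowest values. The other Robo1 probe sets, with RON+MSP means of 2.83 and 3.21, differed by 0.04 and 0.05. RON+MSP ranked behind MAP3K11 alone among the 13 groups for Tubb2b, Col5a3 and Robo1. Without pair B Tubb2b was not called (0.89, adjusted p = 0.0618).

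High means in 2 other genes of this set came from 1 pair. Cdkn2b, the cell cycle inhibitor p15, read 10.20 and 10.08 in pair A, 6.09 and 5.93 in pair B and 7.20 and 7.06 in pair C, against a non-RON median of 5.99. Pair A stood far above the others, and without it the difference of 1.59 ± 0.37 (paired adjusted p = 0.0387) was 0.43 (adjusted p = 0.585). Gabbr1, a subunit of the metabotropic GABA receptor, read 11.06 and 11.26 in pair C and 7.44 to 7.62 in pairs A and B, against 6.77 to 8.22 in non-RON arrays. Its difference of 1.12 ± 0.24 (paired adjusted p = 0.0283) was -0.08 without pair C, so both calls rested on 1 pair.

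**Figure D1:**
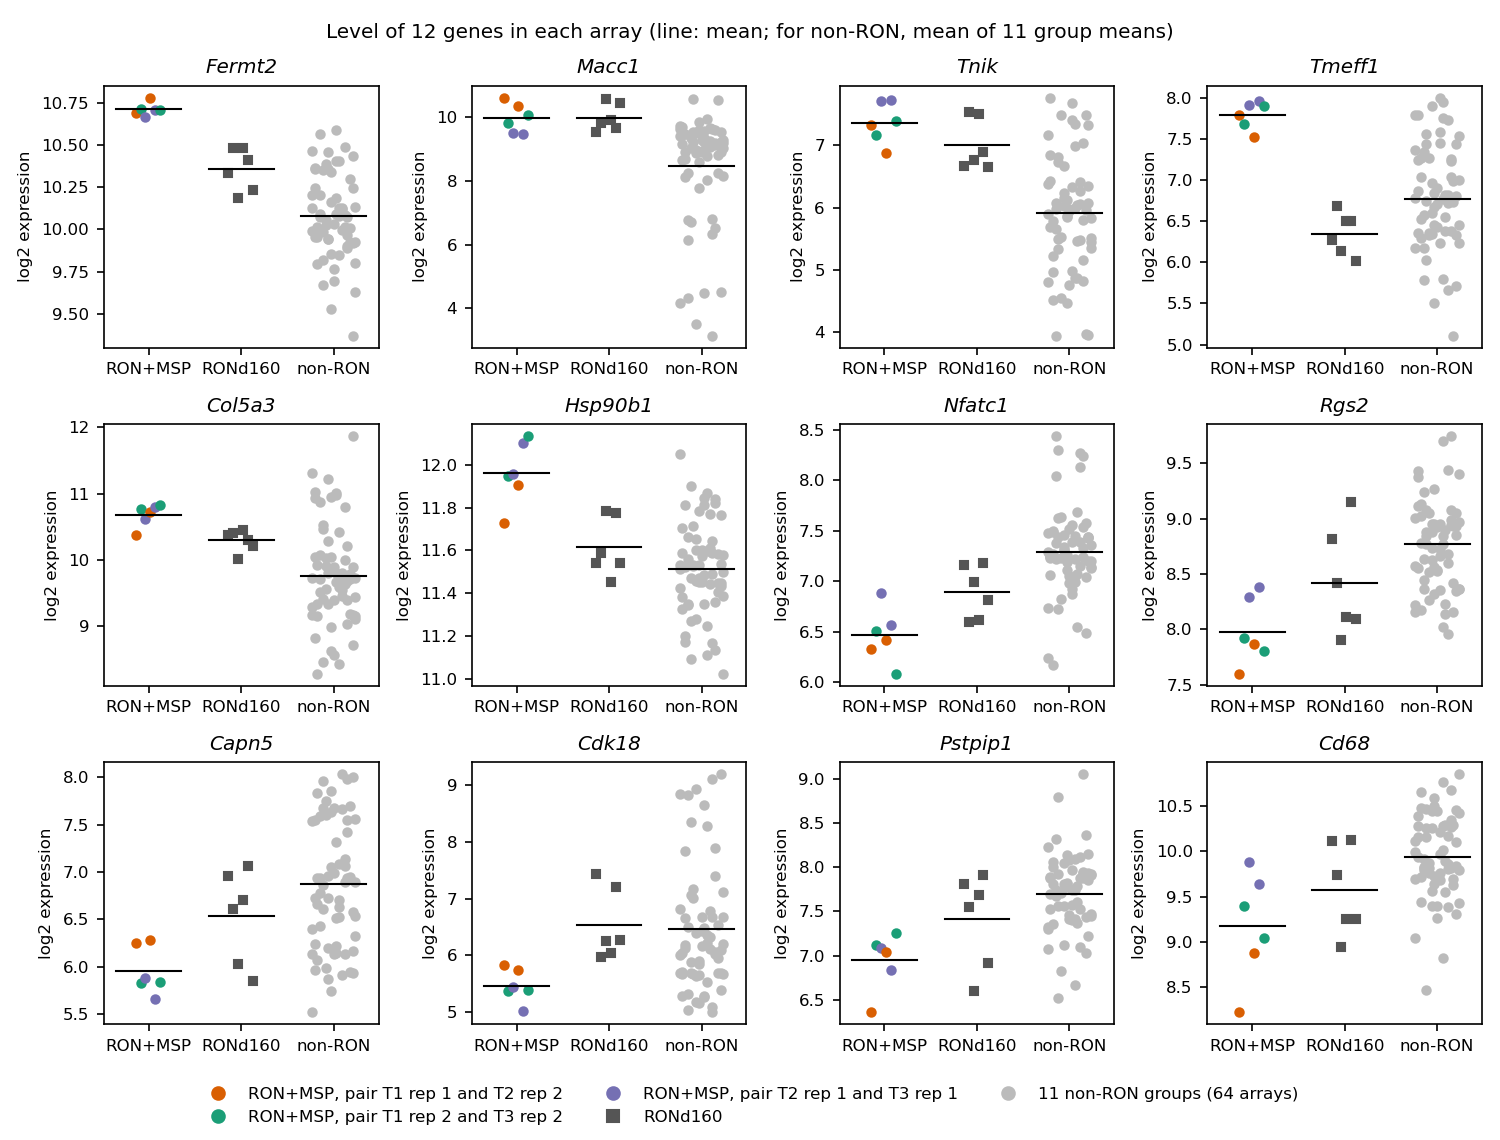
Log2 level of 12 genes in each array, with RON+MSP on the left (colours mark the pairs), RONd160 in the middle and the 64 non-RON arrays on the right; horizontal lines are means, for non-RON the mean of 11 group means. Fermt2 in RON+MSP (10.67 to 10.78) lies above every non-RON array, Macc1 averages 9.95 in RON+MSP and 9.97 in RONd160, and Cd68 is lowest in pair A.

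Larger differences also appeared among genes called only with arrays as replicates. Thbs4, a thrombospondin of the extracellular matrix, read 8.92 and 9.53 in pair A, 9.23 and 7.81 in pair B and 9.84 and 9.78 in pair C, against a non-RON median of 7.27 (2.02 ± 0.56, adjusted p = 0.0144, paired adjusted p = 0.199). Ret, the receptor kinase of GDNF family ligands, read 7.27 and 6.64, 8.27 and 8.63, and 8.83 and 8.08 in pairs A, B and C, against a non-RON median of 6.14 (1.79 ± 0.47, adjusted p = 0.00973, paired adjusted p = 0.0782). In both genes all 6 arrays exceeded the non-RON mean, and 20 (Thbs4) and 25 (Ret) of the 64 non-RON arrays lay above the lowest RON+MSP array. The other high genes of this kind were Plagl1, an imprinted zinc finger factor (1.30 ± 0.32), Cavin4, a caveolar coat protein of muscle (1.29 ± 0.42), Hs6st2, a heparan sulphate sulphotransferase (1.25 ± 0.29), Kcnab1, a potassium channel beta subunit (1.23 ± 0.29), and Cdh10, a cadherin (1.12 ± 0.26), with paired adjusted p from 0.0539 to 0.199. The other probe sets of Plagl1, with RON+MSP means of 4.19 and 3.42, differed by -0.06 and 0.20. Those of Hs6st2 differed by 0.71, -0.0015 and 0.04, those of Cdh10 by 0.06, -0.08 and 0.35, and that of Kcnab1 by 1.23. Skeletal muscle genes varied widely among these arrays, and with their mean as a covariate Cavin4 lost its call (1.05, adjusted p = 0.0767) while Thbs4 kept it (1.67, adjusted p = 0.0299).

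Neither introduced gene could be checked by its level. Mst1r, the mouse gene of RON, read 4.001 to 4.61 in RON+MSP, 4.12 to 4.55 in RONd160 and 3.73 to 7.82 (median 4.24) in non-RON arrays, and the difference was -0.07 ± 0.22 (adjusted p = 0.877, paired adjusted p = 0.949). Mst1, the gene of MSP, read 4.29 to 4.51 in RON+MSP against a non-RON median of 4.23, below the expression filter, and was not tested. A mouse probe set checks nothing if the introduced sequence is human or lacks the part it reads. Both levels were low, above the median of 2.95 of control probe sets for a bacterial trp gene.

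Of the 15 receptors, ligands and proteases of the RON and MET system, 11 were tested, 1 was called higher and 0 lower (background 4.65% and 5.25%), with a median difference of -0.10 against -0.01 over all genes. The gene called was Macc1, a regulator of Met transcription, at 10.58 and 10.33 in pair A, 9.80 and 10.05 in pair B and 9.47 and 9.44 in pair C, against a non-RON median of 9.08. Its difference of 1.503 ± 0.35 (adjusted p = 0.00344, paired adjusted p = 0.0387) drew on the MAP3K11 arrays, which averaged 4.03. Without MAP3K11 among the non-RON groups it was 1.06 (adjusted p = 0.0351, paired adjusted p = 0.134), and without pair A it was 1.24 (adjusted p = 0.0853). RONd160, at 9.97, did not differ from RON+MSP by the test (-0.07 ± 0.47, adjusted p = 0.947). Met averaged 9.60 ± 0.16 in RON+MSP (SD, n = 6) against 10.07 (difference -0.47 ± 0.25, adjusted p = 0.24), and its ligand Hgf ranged from 5.43 to 8.49, lowest in pair A. The proteases and inhibitors that act on MSP or HGF were not called: Hpn -0.10 ± 0.06, St14 -0.18 ± 0.11, Tmprss2 -0.47 ± 0.25, Plau 0.28 ± 0.31, Spint1 -0.26 ± 0.22 and Spint2 -0.24 ± 0.15. Plat, tissue plasminogen activator, differed by 0.27 ± 0.12 (adjusted p = 0.127) and was called without MAP3K11 (0.35, adjusted p = 0.0435).

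Among the 18 tested adaptors and effectors of the receptor, such as Grb2, Gab2 and Shc1, Src alone was called (0.29 ± 0.084, adjusted p = 0.0182, paired adjusted p = 0.166). Its level was 8.41 in 1 array of pair B and 8.57 to 8.66 in the other 5, against a non-RON median of 8.23. In the ERK output list, 4 of 23 tested genes were called higher and 0 lower, the median difference was 0.23, and 19 differences were positive, beside 4.65% called higher and 5.25% lower over all genes. The same shares apply to each list below. The ERK genes called were Egr3 (0.9995 ± 0.32) and Egr2 (0.88 ± 0.22), immediate early transcription factors, Dusp5, a phosphatase that inactivates ERK (0.81 ± 0.21), and Phlda1 (0.42 ± 0.12), with paired adjusted p from 0.0633 to 0.191. The other probe set of Egr3 differed by 0.03 and that of Egr2 by 0.95. Dusp6, Spry2 and Etv4, other genes that respond to ERK, differed by -0.09 ± 0.14, 0.29 ± 0.20 and -0.05 ± 0.11, and Spry1 by -0.44 ± 0.19 (adjusted p = 0.129). In the ERK list 2, 3 and 2 genes were called higher without pair A, B or C, and 1 lower without pair C. In the paired fit 0 were called, or 2 without MAP3K11. Group means of the list, relative to all arrays, were 0.24 in RON+MSP and MAP3K11, 0.20 in FAK1, 0.18 in FGFR2aIIIb and 0.15 in RONd160. Egr3, Egr2 and Phlda1 averaged 7.94, 8.11 and 11.3 in MAP3K11, above RON+MSP at 7.77, 7.98 and 10.54. Dusp5 averaged 9.41 in MAP3K11 and 9.95 in RON+MSP. Directly against RONd160, 0 of 23 members were called.

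Among 18 targets of PI3K and FOXO, Ddit4, an inhibitor of mTORC1 that also responds to hypoxia, was called higher (0.66 ± 0.21), and Txnip (-0.63 ± 0.18) and Pik3ip1 (-0.52 ± 0.17) were called lower, with paired adjusted p from 0.199 to 0.228. In the NF-kB list, 2 of 18 were called higher: Ptgs2, the inducible cyclooxygenase (0.66 ± 0.17, paired adjusted p = 0.12), and Nfkbia, the NF-kB inhibitor (0.37 ± 0.077, paired adjusted p = 0.0653). The 16 tested AP-1 and JNK response genes and the 24 interferon-stimulated genes had 0 calls.

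In the list of the unfolded protein and ATF4 responses, 12 of 27 tested genes were called higher in RON+MSP and 0 lower (44.4%, beside 4.65% of all genes called higher), and all 27 differences were positive with a median of 0.23, beside -0.01 over all genes. With the pairs as a block 4 were called (background 0.397%): Hsp90b1, Dnajc3, Pdia6 and Hspa5. Hsp90b1, the glucose-regulated chaperone GRP94, read 11.73 and 11.90 in pair A, 11.95 and 12.13 in pair B and 11.96 and 12.10 in pair C, against 11.02 to 12.05 (median 11.52) in non-RON arrays. The lowest RON+MSP array was exceeded by 11 of the 64 non-RON arrays, and the difference was 0.45 ± 0.066 (adjusted p = 1.52e-05, paired adjusted p = 0.0197). Hspa5, the chaperone BiP that holds the stress sensors inactive, read 12.52 and 12.70, 12.41 and 12.78, and 12.41 and 12.52 in pairs A, B and C, against a non-RON median of 12.24 (0.31 ± 0.052, adjusted p = 0.000125, paired adjusted p = 0.0384). Here 8 of the 64 non-RON arrays exceeded the lowest RON+MSP array, and the other Hspa5 probe sets differed by 0.47 and 0.04.

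Dnajc3, a co-chaperone of BiP, read 9.06 and 9.56 in pair A, 9.44 and 9.61 in pair B and 9.18 and 9.26 in pair C, against a non-RON median of 8.87 (0.50 ± 0.086, adjusted p = 0.00016, paired adjusted p = 0.0387). Pdia6, a protein disulphide isomerase, read 11.27 and 11.36, 11.61 and 11.69, and 11.67 and 11.62 in pairs A, B and C, against a non-RON median of 11.20 (0.37 ± 0.07, adjusted p = 0.00043, paired adjusted p = 0.0431). Among the non-RON groups MAP3K11 was lowest for Pdia6, at 10.71, and without it the difference was 0.33 with a paired adjusted p of 0.0664. Dnajc3 lies on chromosome 14 and Pdia6 on chromosome 12, the chromosomes that leaned upward. Hsp90b1 lies on chromosome 10 and Hspa5 on chromosome 2, whose tested genes had median differences of 0.01 and -0.04.

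Folding enzymes and chaperones made up most of the other calls: Pdia4 (0.44 ± 0.087, adjusted p = 0.000675, paired adjusted p = 0.101), Sdf2l1 (0.47 ± 0.12), Calr, calreticulin (0.27 ± 0.071), Pdia3 (0.16 ± 0.056) and Edem1, which serves the degradation of misfolded proteins (0.16 ± 0.053). Ddit3, the stress transcription factor CHOP (0.62 ± 0.18), Vldlr (1.02 ± 0.31) and the secreted factor Fgf21 (0.40 ± 0.11) were called as well, and were more variable between arrays. Vldlr read 6.19 to 8.52 over the 6 arrays. Atf4, the transcription factor of the response, differed by 0.23 ± 0.079 (adjusted p = 0.0544), and the amino acid synthesis genes it induces were not called: Asns 0.29 ± 0.17, Psat1 0.23 ± 0.16, Shmt2 0.20 ± 0.13 and Phgdh 0.01 ± 0.14. Xbp1, a transcription factor of the same response, differed by 0.08 ± 0.043 (adjusted p = 0.266).

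The list's calls numbered 9, 6 and 7 without pair A, B or C and 11 without MAP3K11. In the paired fit 3 of 27 were called without MAP3K11 and 0 of 27 without any 1 of the pairs, where Hsp90b1 gave paired adjusted p of 0.0564, 0.214 and 0.0687. The list mean, taken relative to all arrays, was 0.26 in RON+MSP, 0.13 in RONd160 and, among the non-RON groups, highest in HER2 at 0.28. So the HER2 tumours had a list mean as high as RON+MSP, although Hsp90b1 averaged 11.96 in RON+MSP and 11.46 in HER2. Directly against RONd160, 7 of 27 members were called higher and 0 lower (6.11% of all genes were called higher and 6.14% lower), and 0 were called in the paired fit.

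The printed promoter element was counted against these calls, without a test. It was found in 5 of the 12 members called higher (Calr, Dnajc3, Hsp90b1, Hspa5 and Pdia6) and in 1 of 14 tested members not called (Canx). Of all 18 tested genes that held it, 8 were called higher and 0 lower, with a median difference of 0.27, against 522 higher and 605 lower of 11111 tested genes with a promoter in the table. Leaving out the list's members, 3 of 12 were called higher, 0 lower and 0 in the paired fit, with 11 positive differences and a median of 0.15. These 12 were Acacb, Adcy3, Alg12, Creld2, Derl3, Ero1b, Pan2, Ptgdr2, Spats2l, Syvn1, Tdrd9 and Zfp57. Genes outside the chosen list can still belong to the same response, so this count does not separate the element from that family. A match is a description of letters and does not show that a factor was bound.

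**Figure D2:**
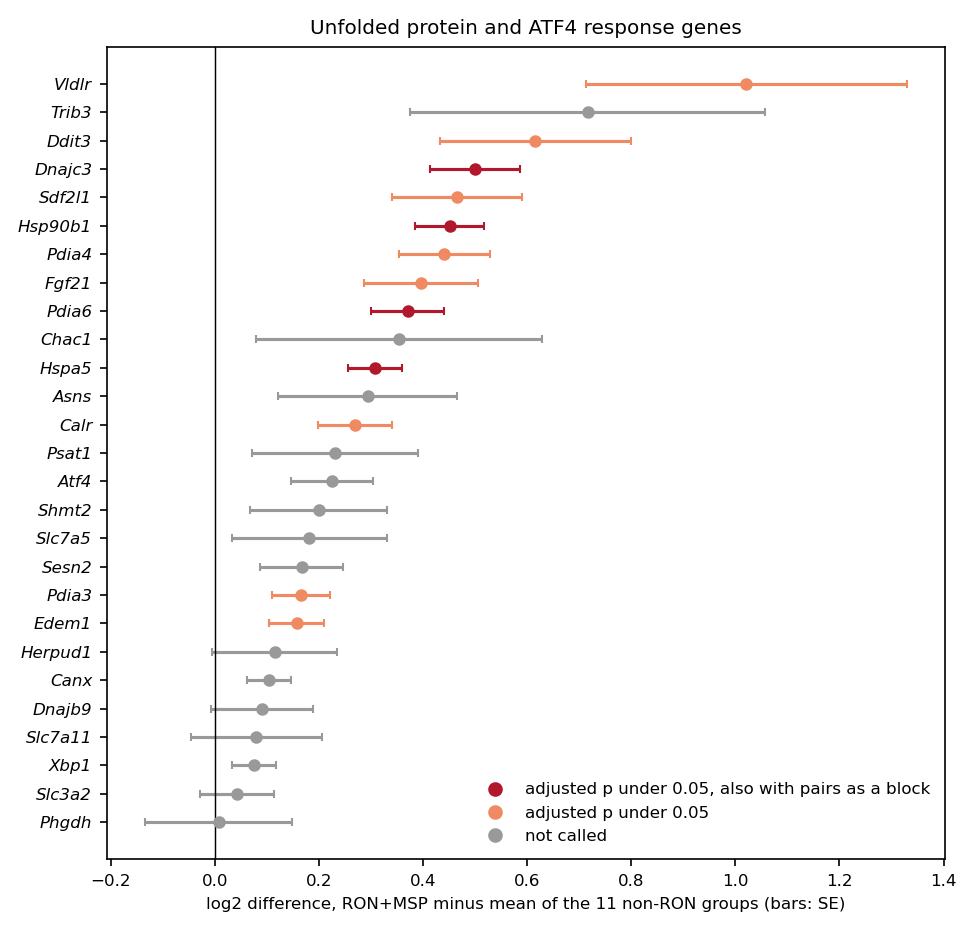
Log2 difference of the 27 tested genes of the unfolded protein and ATF4 response list, RON+MSP minus the mean of the 11 non-RON groups, with bars for the standard error; dark red marks the 4 genes called in both fits, orange the other 8 called and grey those not called. All 27 points lie right of 0, and Hsp90b1 (0.45) and Hspa5 (0.31) have narrow bars.

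Furin, the protease that cuts many secretory precursors in the Golgi, was chosen for mention after its values were seen. It read 8.80 and 8.87, 8.84 and 8.83, and 8.85 and 8.75 in pairs A, B and C, against a non-RON median of 8.45. The 6 values lay between 8.75 and 8.87, 7 of 64 non-RON arrays exceeded the lowest, and the difference was 0.39 ± 0.076 (adjusted p = 0.000573, paired adjusted p = 0.0471).

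Hypoxia and glycolysis genes were called higher in 6 of 25 cases and lower in 0 (24%), and all 25 differences were positive with a median of 0.39, beside 4.65% of all genes called higher and a median of -0.01 over all genes. Adm, adrenomedullin, a vasodilator peptide induced by hypoxia, read 11.56 and 11.43 in pair A, 9.80 and 11.26 in pair B and 9.21 and 10.51 in pair C, against a non-RON median of 8.92 (1.63 ± 0.37, adjusted p = 0.00291, paired adjusted p = 0.101). Both arrays of pair A and 1 of pair B stood above every non-RON array, while T2 replicate 1 lay close to the non-RON mean. Slc2a1, the glucose transporter GLUT1, ran from 10.92 in T2 replicate 1 to 11.97 in T1 replicate 1 (0.87 ± 0.23, paired adjusted p = 0.124). Vegfa, the angiogenic growth factor, was more even at 9.49 to 9.93 (0.66 ± 0.15, adjusted p = 0.0022, paired adjusted p = 0.0812), and Hk2 (0.52 ± 0.15), Ndrg1 (0.65 ± 0.20) and Aldoa (0.29 ± 0.097) completed the calls. In the paired fit 0 of 25 were called, with or without any 1 pair, although limma with arrays as replicates called 1, 3 and 15 without pair A, B or C.

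Other groups had like levels of these genes. The list mean was 0.35 in RON+MSP, 0.51 in RONd160 and 0.41 in HER2, and directly against RONd160 0 of 25 members were called higher and 1 lower. Adm averaged 11.02 and Slc2a1 11.72 in RONd160, against which RON+MSP differed by -0.43 ± 0.50 and -0.13 ± 0.31. Vegfa was the exception in level, at 9.19 to 9.33 in RONd160, below all 6 RON+MSP arrays, with a difference of 0.52 ± 0.20 that was not called (adjusted p = 0.0756). Hif1a, the oxygen-sensitive transcription factor, chosen after its values were seen, read 11.38 to 11.77 against a non-RON median of 11.22 (0.37 ± 0.07, adjusted p = 0.00041, paired adjusted p = 0.0253). It lies on chromosome 12, and its other probe sets differed by 0.46, 0.06 and 0.20.

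**Figure D3:**
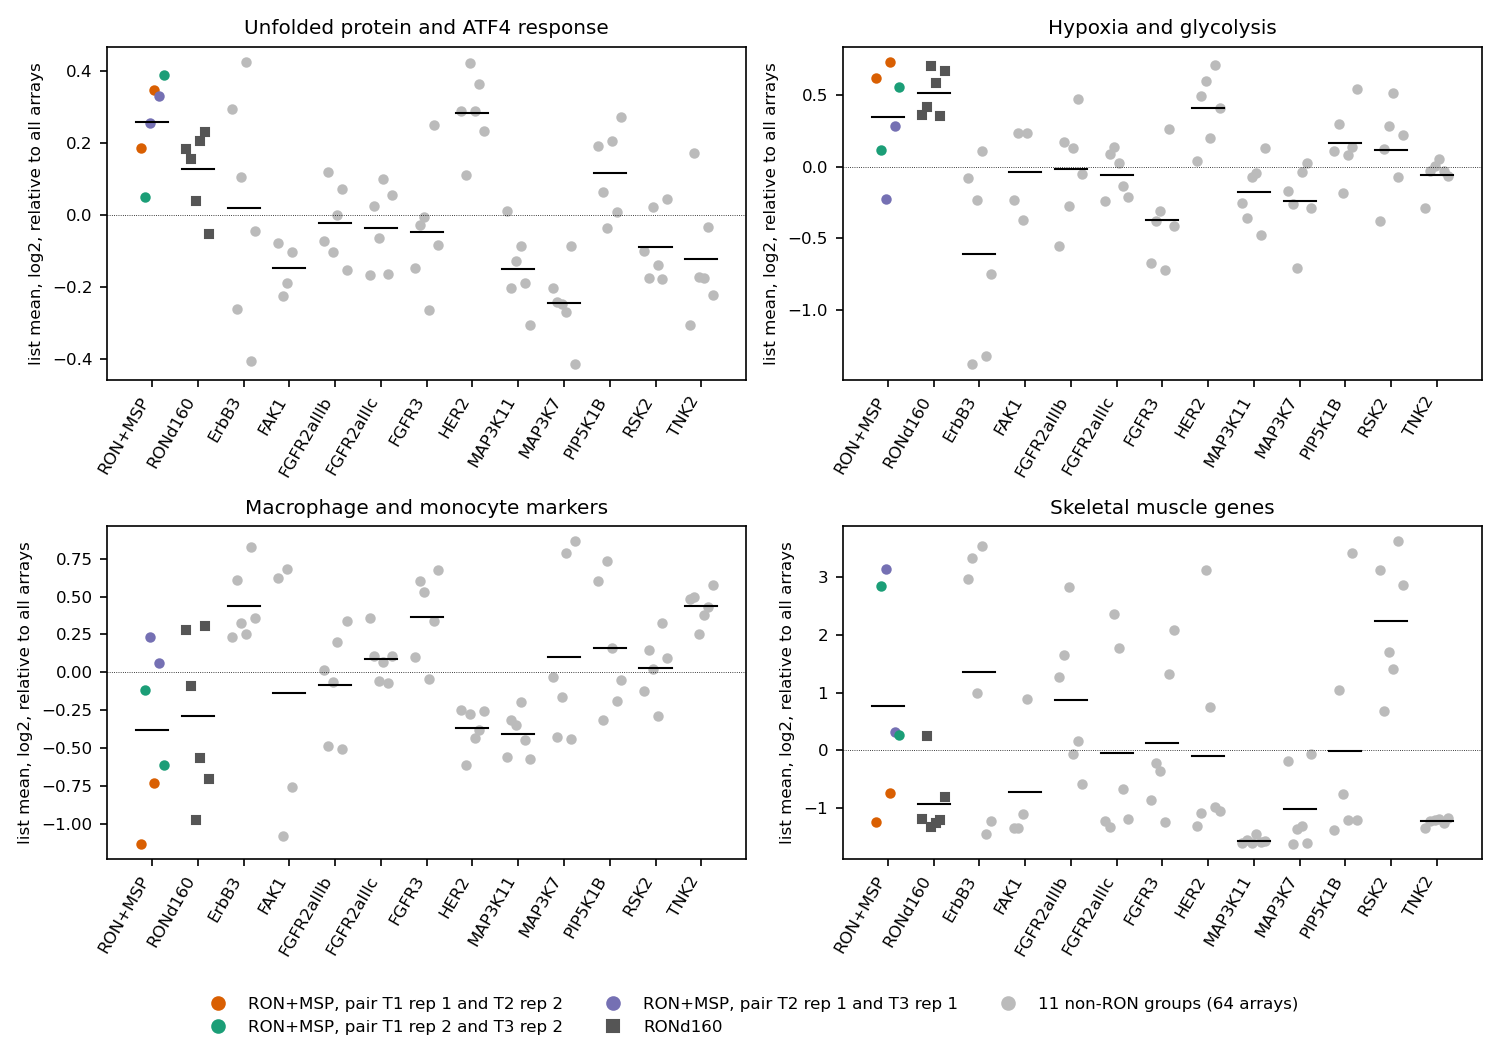
Mean log2 level of 4 gene lists in each array, relative to all arrays, with RON+MSP first, RONd160 second and the 11 non-RON groups after them; lines are group means. The unfolded protein list is high in RON+MSP (0.26) and HER2 (0.28), the hypoxia list in RON+MSP, RONd160 and HER2, and within RON+MSP the macrophage list is lowest in pair A (-1.13 and -0.73) while muscle genes are highest in T1 replicate 2 and T2 replicate 1 (2.84 and 3.15).

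The genes lower in RON+MSP by the largest amounts in the paired fit included regulators of signalling. Nfatc1, a calcium-regulated transcription factor, read 6.33 and 6.42 in pair A, 6.51 and 6.08 in pair B and 6.88 and 6.57 in pair C, against 6.16 to 8.44 (median 7.26) in non-RON arrays. Only 8 of 64 non-RON arrays lay below the highest RON+MSP array, and the difference was -0.82 ± 0.16 (adjusted p = 0.000545, paired adjusted p = 0.0208). Rgs2, which shortens signalling through Gq-coupled receptors, read 7.599 and 7.87, 7.92 and 7.81, and 8.29 and 8.39 in pairs A, B and C, against a non-RON median of 8.78 (-0.79 ± 0.15, adjusted p = 0.00041, paired adjusted p = 0.0403). Other probe sets of Nfatc1 and Rgs2 differed in the same direction, and both genes were lowest in RON+MSP of the 13 groups.

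Capn5, a calpain protease, stood at 5.66 to 6.29 against a non-RON median of 6.88 (-0.91 ± 0.20, adjusted p = 0.00149, paired adjusted p = 0.0283). Cdk18, a cyclin-dependent kinase of the PCTAIRE family, stood at 5.03 to 5.82 against a non-RON median of 6.14 (-0.996 ± 0.22, adjusted p = 0.00222, paired adjusted p = 0.0387). MAP3K11 averaged 8.93 in Cdk18, and without it the difference was -0.75 (adjusted p = 0.0188, paired adjusted p = 0.107). Gsg1 at 4.45 to 4.99 (-0.75 ± 0.14, paired adjusted p = 0.0387) and Zbtb7c, a zinc finger factor, at 4.996 to 5.45 (-0.73 ± 0.16, paired adjusted p = 0.0471) were low in expression in RON+MSP. The other probe sets of Zbtb7c, at like levels, differed by 0.06 and 0.04. The RON+MSP arrays lay below all RONd160 arrays in Cdk18 (5.98 to 7.43 in RONd160) and in Zbtb7c (5.79 to 7.16 in RONd160), which was called lower in both fits (-1.19 ± 0.21, paired adjusted p = 0.00975). Cdk18 was called against RONd160 only with arrays as replicates (-1.03, adjusted p = 0.0163, paired adjusted p = 0.0993). ErbB3 (5.275) and RSK2 (5.43) averaged below RON+MSP (5.466) in Cdk18. PIP5K1B did so in Capn5 (5.928 beside 5.957) and Zbtb7c (5.131 beside 5.198).

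Larger decreases were called only with arrays as replicates. Tmprss11e, a transmembrane serine protease of squamous epithelium, read 4.12 and 4.24 in pair A, 2.81 and 3.02 in pair B and 2.57 and 2.56 in pair C, against 2.43 to 9.85 (median 5.25) in non-RON arrays. The non-RON groups were spread widely, from 2.57 in ErbB3 to 9.47 in MAP3K11, and the difference of -2.58 ± 0.82 (adjusted p = 0.0321, paired adjusted p = 0.12) was -2.22 and not called without MAP3K11 (adjusted p = 0.0606). Otop1, a proton channel (-1.64 ± 0.50), and Aqp5, a water channel of glands (-1.5 ± 0.40), were also spread widely over the non-RON groups, with FGFR2aIIIb highest at 9.35 for Otop1 and HER2 highest at 10.11 for Aqp5. Itga8 (-1.33 ± 0.43), Dkk2, a Wnt antagonist (-1.16 ± 0.31), Cadm1, an adhesion molecule (-1.10 ± 0.29), Tmeff2 (-1.09 ± 0.33), Enpp5 (-1.05 ± 0.25), Blnk, a B cell and myeloid adaptor (-0.91 ± 0.23), and Car5b, a mitochondrial carbonic anhydrase (-0.88 ± 0.23), had paired adjusted p from 0.0782 to 0.157. Ano4, a member of the anoctamin family, was called lower in both fits through MAP3K11 alone, where it averaged 8.49: it read 2.46 to 2.83 in RON+MSP against a non-RON median of 2.69, and the difference without MAP3K11 was -0.05 (adjusted p = 0.682).

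Of 21 tested macrophage and monocyte markers, 3 were called lower in RON+MSP and 0 higher (14.3%, beside 5.25% of all genes called lower). The median difference was -0.39, beside -0.01 over all genes, 1 difference was positive, and 1 marker was called in the paired fit. Cd68, a lysosomal protein of macrophages, read 8.23 and 8.88 in pair A, 9.40 and 9.04 in pair B and 9.88 and 9.64 in pair C, against a non-RON median of 9.91 (-0.76 ± 0.17, adjusted p = 0.00246, paired adjusted p = 0.04995). All 6 values lay below the non-RON mean, and the order of the pairs was the same in Tyrobp, the signalling adaptor of myeloid receptors (-0.49 ± 0.16, paired adjusted p = 0.213). Cd14, the lipopolysaccharide co-receptor, was called too (-0.49 ± 0.12, paired adjusted p = 0.109). The defining markers Csf1r and Adgre1 differed by -0.46 ± 0.16 (adjusted p = 0.0564) and -0.21 ± 0.21 (adjusted p = 0.559), and Ccr2, the monocyte chemokine receptor, by -1.08 ± 0.40 (adjusted p = 0.0677). In bulk tumour RNA, fewer cells of a type and less RNA for each cell cannot be told apart.

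The list mean was -1.13 and -0.73 in pair A, -0.12 and -0.61 in pair B and 0.24 and 0.06 in pair C, beside -1.08 to 0.86 in non-RON arrays. Without pair A 0 of 21 markers were called and the median was -0.16, without pair B 2 were called, and without pair C 12 were called lower. By group the list mean was -0.38 in RON+MSP, -0.29 in RONd160, -0.37 in HER2 and -0.41 in MAP3K11 (the lowest), and against RONd160 0 markers were called. Pstpip1, a cytoskeletal adaptor of blood cells, read 6.36 and 7.04, 7.12 and 7.25, and 7.08 and 6.83 in pairs A, B and C, against a non-RON median of 7.75 (-0.74 ± 0.16, adjusted p = 0.00137, paired adjusted p = 0.0326). Without pair A Cd68 differed by -0.43 (adjusted p = 0.215) and Pstpip1 by -0.60 (adjusted p = 0.0585). MHC class II genes had 0 of 8 called, with all 8 differences negative and a median of -0.24.

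Stromal lists leaned upward with few calls. Among fibroblast and matrix genes, Thy1 (0.66 ± 0.21) and Col5a1 (0.56 ± 0.18) were called of 21 tested, 20 differences were positive and the median was 0.30. Of 20 endothelial markers Flt1, a VEGF receptor, was called (0.47 ± 0.16, adjusted p = 0.0499), with a median of 0.32, and Acta2, smooth muscle actin, was called among pericyte markers (0.91 ± 0.28). None of these calls held in the paired fit (paired adjusted p 0.138 to 0.296). The other Flt1 probe sets differed by -0.01, 0.45 and 0.38. Fibroblast list means were -0.01 and 0.49 in pair A, 0.43 and 0.06 in pair B and 0.39 and 0.57 in pair C. Of the 13 groups RON+MSP ranked 5 in the fibroblast list mean, 3 in the endothelial and 4 in the pericyte and skeletal muscle means. RSK2 and MAP3K11 were above it in fibroblast genes (0.561 and 0.471, beside 0.32) and endothelial markers (0.567 and 0.345, beside 0.23). The same held for pericyte markers (0.516 and 0.605, beside 0.217). The 26 skeletal muscle genes all had positive differences, with a median of 0.81, yet 1 was called, and their list mean ran from -1.24 in T1 replicate 1 to 3.15 in T2 replicate 1. That call, Eno3, a muscle enolase, drew on MAP3K11 at 7.65 and was 0.27 without it (adjusted p = 0.359). Their part in the results above was not tested beyond the covariate fit, in which 1147 genes were called.

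The epithelial markers read 12.43 to 12.70 (Krt8), 10.95 to 12.49 (Krt18), 7.03 to 7.61 (Epcam) and 6.03 to 7.71 (Cdh1) in RON+MSP. None of these differed from the non-RON groups by the test (adjusted p 0.459 to 0.893). Markers of T and NK cells, B cells, neutrophils and adipocytes, and luminal, milk protein and squamous genes, had 0 calls in RON+MSP. Adipoq varied from 3.12 to 9.17 among the 6 arrays.

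Adhesion and matrix lists held a few more calls. Itga5, the fibronectin receptor alpha chain, read 8.14 and 7.91 in pair A, 8.74 and 8.64 in pair B and 8.49 and 8.67 in pair C, against a non-RON median of 7.64 (0.77 ± 0.18, adjusted p = 0.00338, paired adjusted p = 0.0482). All 6 lay above the non-RON mean, with 20 non-RON arrays above the lowest, and RONd160 at 8.37 did not differ by the test (0.07 ± 0.24). Without pair B Itga5 was not called (0.63, adjusted p = 0.0764). Lamb1, a laminin chain on chromosome 12, was called higher (0.30 ± 0.084, paired adjusted p = 0.17), and Itga8 lower, so the integrin and laminin list had 2 of 22 higher and 1 lower. Timp2, an inhibitor of metalloproteinases, read 11.38 to 11.79 against a non-RON median of 11.91 (-0.31 ± 0.066, adjusted p = 0.0014, paired adjusted p = 0.0384) and was the lowest of 13 groups. Without pair A its difference was -0.22 and was not called (adjusted p = 0.0971). Foxc2 (0.82 ± 0.21) and Zeb1 (0.37 ± 0.11), drivers of mesenchymal traits, were called of 16 switch genes, with paired adjusted p of 0.0669 and 0.135.

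Of 31 tested respiratory chain subunits, 5 were called lower and 0 higher (Atp5j, Ndufs7, Ndufb3, Ndufa8 and Atp5c1), 16.1% beside 5.25% of all genes called lower, with a median difference of -0.07 and 1 call in the paired fit. Atp5j, a subunit of ATP synthase, read 11.08 and 11.21, 11.29 and 11.24, and 11.46 and 11.31 in pairs A, B and C, against a non-RON median of 11.53 (-0.24 ± 0.037, adjusted p = 3.45e-05, paired adjusted p = 0.0208). It was lowest in pair A and lies on chromosome 16, whose median was lowest in pair A. Without pair A 1 of 31 subunits was called lower.

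Hes6, a transcription factor of the Hes family, was low in RON+MSP at 6.85 to 7.26, against 7.28 to 7.78 in RONd160 and a non-RON median of 7.44 (-0.35 ± 0.067, adjusted p = 0.000482, paired adjusted p = 0.0424). The RON+MSP arrays lay below all RONd160 arrays (-0.46 ± 0.091, paired adjusted p = 0.038). Nrarp, a Notch target, was also called lower (-0.48 ± 0.14, paired adjusted p = 0.191), making 2 of 14 genes in the Notch list. The list as a whole did not lean downward, with 9 of 14 differences positive and a median of 0.08. Among 15 tested p53 targets and cell cycle inhibitors, Trp53inp1 (-0.56 ± 0.14) and Cdkn2c (-0.43 ± 0.13) were called lower, neither of them in the paired fit. Cdkn2b, described above, was called higher. Proliferation genes had 1 call of 28, Pcna (-0.19 ± 0.063, paired adjusted p = 0.296).

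Over all chromosomes 4.65% of genes were called higher and 5.25% lower. On chromosome 14, 68 of 468 tested genes were called higher (14.5%) and 1 lower, and on chromosome 12, 67 of 482 higher (13.9%) and 10 lower, while chromosome 16 had 14 higher and 49 lower of 432 (11.3% lower). In the paired fit 10 of the 55 higher genes lay on chromosome 14 and 12 on chromosome 12. The median of chromosome 14 genes, relative to all arrays, was 0.11 and 0.15 in pair A, 0.11 and 0.07 in pair B and 0.01 and -0.02 in pair C, within the non-RON range of -0.14 to 0.27. Chromosome 12 stood at 0.13 and 0.12, 0.07 and 0.07, and -0.01 and -0.01, and chromosome 16 at -0.20 and -0.16, -0.05 and -0.10, and 0.06 and 0.02. These shifts were seen in pairs A and B and not in pair C, so they do not describe all RON+MSP arrays. Pairs were formed from these same medians, so the likeness of paired arrays here is no separate result. Whether the shifts reflect DNA copy number was not tested. Fermt2, Dnajc3, Macc1, Pdia6, Hif1a and Lamb1 lie on chromosomes 12 and 14.

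**Figure D4:**
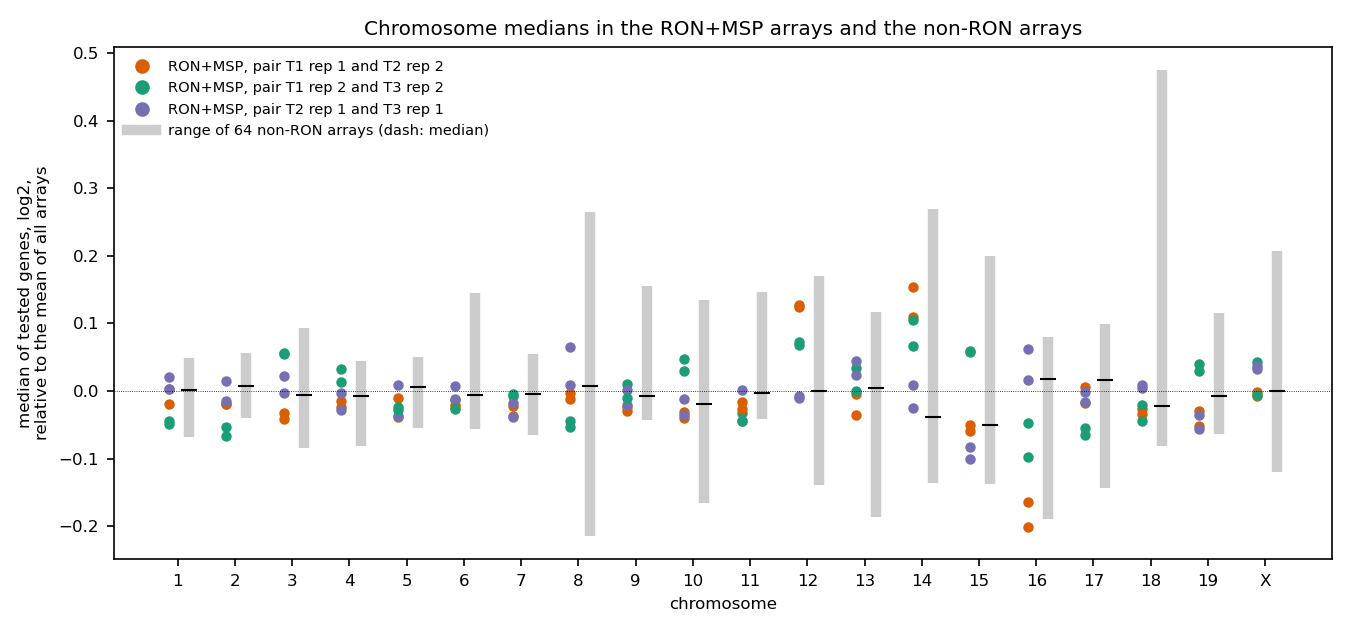
Median log2 level of the tested genes of each chromosome, relative to the mean of all arrays, in the 6 RON+MSP arrays (left points, coloured by pair) and as the range over the 64 non-RON arrays (right grey bars, dash at the median). Paired arrays, which were matched on the autosome medians, lie close together, chromosomes 12 and 14 are raised in pairs A and B, and chromosome 16 is lowest in pair A.

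The 2 RON groups were compared directly to see which of these levels go with RON and its ligand rather than with RONd160. Of 13868 genes 1700 were called (12.3%), 848 higher and 852 lower in RON+MSP, and 201 in the paired fit (1.45%), 91 higher (0.656%) and 110 lower (0.793%). Arrays of the groups did not overlap in 817 genes (5.89%). Of the 105 genes called in the paired fit against the non-RON groups, 48 were also called in the same direction against RONd160 with arrays as replicates. Both comparisons share the RON+MSP arrays, so this count is no independent support.

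Tmprss11e had the largest difference among genes with no overlap, at 2.56 to 4.24 in RON+MSP and 7.94 to 10.01 in RONd160 (-5.49 ± 1.11, adjusted p = 0.000612, paired adjusted p = 0.00644). Aldh1l1, an enzyme of folate metabolism (-2.34 ± 0.31, paired adjusted p = 0.00468), and Padi3, a peptidylarginine deiminase (-1.97 ± 0.19, adjusted p = 3.53e-11, paired adjusted p = 1.51e-07), were lower too. Aldh1l1 averaged 5.72 in RON+MSP and 8.05 in RONd160, with a non-RON median of 5.84. Padi3 averaged 4.70 in RON+MSP and 6.66 in RONd160, with a non-RON median of 4.78, so in both genes RONd160 was the group that stood apart. AW112010 differed by -1.78 ± 0.43 (paired adjusted p = 0.0439), with 2 very low arrays, 6.79 and 6.76 in pair A. Without pair A the AW112010 difference was -1.04 and was called in neither fit (adjusted p = 0.121, paired adjusted p = 0.417). Pcolce2, which enhances procollagen processing, differed by -1.56 ± 0.42 (paired adjusted p = 0.0509) and was not called without pair C (-1.15, adjusted p = 0.11).

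Thbs4 was the highest of the genes with no overlap, at 7.81 to 9.84 in RON+MSP and 4.68 to 6.43 in RONd160 (3.63 ± 0.76, adjusted p = 0.000944, paired adjusted p = 0.0574). Cavin4 (1.94 ± 0.57), Epb41l4a, a cytoskeletal band 4.1 protein (1.84 ± 0.59), Epha3, an ephrin receptor (1.68 ± 0.52), and Gabbr1 (1.67 ± 0.33, paired adjusted p = 0.0072) followed. Gabbr1 again rested on pair C: without it the difference was 0.49 and was not called in the paired fit (paired adjusted p = 0.328). Without pair C the calls of Epb41l4a, Epha3 and Cavin4 were lost (adjusted p 0.132, 0.145 and 0.0532). Cavin4 and Epb41l4a also lost them without pair A (adjusted p 0.0663 and 0.0584). With the muscle mean as a covariate Cavin4 (1.439, adjusted p = 0.066) and Epha3 (1.355, adjusted p = 0.07) were not called, while Thbs4, Epb41l4a and Gabbr1 were. Epb41l4a did not differ from the non-RON groups by the test (-0.06 ± 0.44), RONd160 being low at 5.67.

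The 6 genes with the largest range of pair means within RON+MSP were picked for that range and are given as a description. Nefl, the light neurofilament chain, read 10.58 and 10.73 in pair A, 5.59 and 5.71 in pair B and 6.06 and 7.22 in pair C. Rps6ka6, the kinase RSK4, read 7.88 and 7.36 in pair A and 3.06 to 3.42 in the others, and both pair A values exceeded the highest non-RON array (6.98), though RONd160 reached 8.16. Acpp, an acid phosphatase, and Dmp1, a mineralised matrix protein, ran the opposite way, with 5.55 and 4.72 (Acpp) and 2.70 and 2.78 (Dmp1) in pair A, 9.34 and 9.51 and 5.48 and 5.42 in pair B, and 10.58 and 10.66 and 7.92 and 7.10 in pair C. In the muscle genes Myl1 and Tnnc2 paired arrays differed: both were high in T1 replicate 2 and T2 replicate 1 (10.87 and 10.85 for Myl1), 7.66 and 7.68 in their partners for Myl1, and low in pair A. None of these 6 genes was called against the non-RON groups.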

How the data were processed

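Tumour RNA was measured on 76 Affymetrix arrays. The deposited log2 values were normalized by the authors and used unchanged; per the submitters' processing notes the tool was affy, and its version and the normalization method are not given in the sources used here. Of 45101 probe sets, 34958 name 1 gene, 932 several and 9211 none, and 34754 matched the GRCm38.p6 annotation, with 0 symbols changed. Each of 18194 genes was read from its probe set with the highest mean, and 13868 above the 40th percentile of their array in at least 4 arrays were tested.

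All 76 arrays were fitted by limma 3.58.1 (statmod 1.5.0, R 4.3.3) with terms for the 13 groups and the T label, two-sided, with Benjamini-Hochberg adjustment. RON+MSP was set against the mean of 11 non-RON group means, each of equal weight, and against RONd160. Because the model holds the T label, a fitted difference need not equal the difference of printed means. P-values measure the spread between arrays, which the labels call biological replicates. Arrays were paired by the correlation of 19 autosome medians over 13374 genes, and the pairs entered a second fit through duplicateCorrelation. The code of the fit was also run on simulated data, whose outcome is not given here and lends no support to the calls. 0 arrays were identical, 0 columns of values were unused, and the number of arrays limits the precision.

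Named genes were the 12 highest and 12 lowest among called genes with all 6 arrays on 1 side of the non-RON mean, the 8 and 8 of the paired fit, up to 4 called members of each list, genes apart from all non-RON arrays, 5 and 5 apart from RONd160, the RON and MET list, and the 6 with the widest pair means. Other genes, among them Hsp90b1, Hspa5, Pdia6, Ano4, Furin, Hif1a and further list members, were chosen after their values were seen. Members, lists and tests were chosen with earlier results of these data known. Alternatives changed 1 choice at a time, except that the paired fit was also run without MAP3K11 or a pair (pairs, T label, filter, normalization, probe sets, variance prior, weights, groups, left-out arrays and pairs). One gene named by the series is not reported here.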

Additional observations from a re-analysis of the deposited data

Results flagged for a closer look

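Of 170 named genes and gene list means examined over the 6 RON+MSP arrays, 3, all genes, had 1 array apart from the other 5 by Dixon's criterion. For independent arrays chance alone gives about 1 in 20. Paired arrays are not independent and list means contain named genes, so the number found cannot be set against that rate. Src stood at 8.408 in T1 replicate 2, with the nearest array at 8.572 and the highest at 8.655. St14, the membrane protease matriptase, stood at 5.627 in T1 replicate 2, with the nearest array at 5.438 and the lowest at 5.343. Tmprss2 stood at 4.212 in T3 replicate 2, with the nearest array at 4.598 and the highest at 4.776. Both arrays belong to pair B, and the partner array did not share the value in any of the 3 genes.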

How the results depend on the processing

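Against the non-RON groups 1373 genes were called with arrays as replicates, 105 with the pairs as a random block, 2 with each pair averaged and 2609 with array weights. Leaving out 1 RON+MSP array gave 682 to 1528 calls (682 without T1 replicate 1, 797 without T2 replicate 2 and 871 without T3 replicate 2). Without pair A there were 501, without pair B 574 and without pair C 1541. In the paired fit, leaving out MAP3K11 gave 209, of which 96 are among the 105, and leaving out pair A, B or C gave 6, 7 and 58; these alternatives were chosen after seeing the data. Against RONd160 the counts were 1700 with arrays as replicates, 201 with the pairs as a block, 15 with pairs averaged, 565 with only the arrays of the RON groups in the fit, 1064 without pair C, and 42, 117 and 44 in the paired fit without pair A, B or C. Gabbr1 reversed without pair C, to -0.0766 and, in the paired fit, to -0.08155. The labels' replicate number as a replicate block gave 1368 and 1603 calls in the 2 comparisons; the numbers only name arrays. Higher calls made up 47% of those against the non-RON groups, 50% after quantile normalization and 57.3% after median centring, and 49.9%, 44.1% and 59.6% against RONd160. Of the named gene results, 65 lost their call in the paired fit, 104 with pairs averaged, 13 with the muscle mean as a covariate and 6 without MAP3K11. The cause of these changes was not tested. Low signal, as for Mst1 and Mst1r, limits what the arrays can show.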

Other observations

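The genes in this paragraph were chosen from the 105 called in both fits after their values were seen, with no list behind them, and stand as single values. Kpnb1, importin beta, which carries proteins through the nuclear pore, read 10.56 to 11.18 in RON+MSP, against a non-RON median of 10.25 (0.64 ± 0.11, adjusted p = 9.63e-05, paired adjusted p = 0.0253), but its other probe sets differed by 0.33, 0.26 and -0.01. Kpna4, an importin alpha, differed by 0.41 ± 0.067 (paired adjusted p = 0.0208), and by 0.01 in its other probe set. Nupl1, a nucleoporin on chromosome 14, differed by 0.38 ± 0.067 (paired adjusted p = 0.0269), and by 0.11, 0.14 and 0.00158 in its others. Actn1, an actin crosslinker on chromosome 12, differed by 0.31 ± 0.07 (paired adjusted p = 0.0424), with 0.38 and 0.27 in its other probe sets. Hyou1, an ER chaperone (0.32 ± 0.054, paired adjusted p = 0.0384), Sec63, of the ER translocation channel (0.31 ± 0.055, paired adjusted p = 0.0208), and Ktn1, an ER membrane protein on chromosome 14 (0.49 ± 0.097, paired adjusted p = 0.0321), are not in the unfolded protein list. Mycn, on chromosome 12, averaged 13.59 in RON+MSP, 13.48 in RONd160 and 12.93 over the non-RON groups (0.66 ± 0.12, paired adjusted p = 0.00768). Directly against RONd160, Mycn (0.12), Actn1 (0.08), Sec63 (-0.04), Hyou1 (0.17) and Ktn1 (0.19) were not called (adjusted p 0.116 to 0.776). Kpnb1 (0.72), Kpna4 (0.38) and Nupl1 (0.46) were called higher than in RONd160 with arrays as replicates.

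Single calls appeared in lists not described above, with 3.7% to 8.33% of the tested members called. Over all genes 4.65% were called higher and 5.25% lower, so these counts are no result about the lists. Ccl11, an eosinophil chemokine, was called higher of 27 chemokine ligands (0.92 ± 0.25), Bmpr1b of 26 genes of the TGF-beta and BMP pathway (0.85 ± 0.22), Hoxa9 of 15 Hox genes (0.62 ± 0.20) and Nrg2 of 12 EGF family ligands and receptors (0.21 ± 0.063). Wnt5a was called higher (0.61 ± 0.20) and Dkk2 lower of 31 Wnt genes. None of these was called in the paired fit, and Wnt5a was not called without MAP3K11 (adjusted p = 0.0627). The other probe sets of Nrg2 differed by 0.04 and -0.23 and that of Hoxa9 by 0.10, while those of Bmpr1b and Wnt5a all had positive differences.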
